A study of Mus musculus with 6 samples.

Results

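The 6 genes described here, *Bdh1*, *Acat1*, *Slc16a1*, *Pdk4*, *Angptl4* and *Fgf21*, act in ketone body metabolism and in the response of the liver to fasting. They were chosen by name. Each has 1 row among the 25403 genes of the deposited count table, and all 6 were among the 14496 genes with enough counts to be tested. Their levels were measured by poly(A) RNA-seq in the livers of 3 wild-type mice (WT, C57BL6/J) and 3 mice with a whole-body knockout of *Themis* (*Themis*-KO, written KO for single livers), a gene known for its role in T cell development. Mice of both genotypes had received a diet that induces metabolic dysfunction-associated steatohepatitis (MASH), which they began at 10 to 12 weeks of age and ate for 3 months. Fat supplied 40% and fructose 20% of its calories, and it contained 2% cholesterol. No chow-fed liver belongs to the comparison. The mice had free access to food, and whether food was withdrawn before the livers were collected is not given in the sources used here. The strain background of the *Themis*-KO mice and the structure of the deleted allele are not given there either.

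Ketogenesis takes place in liver mitochondria, where acetyl-CoA from fatty acid oxidation is condensed and converted into acetoacetate and β-hydroxybutyrate, which other organs burn in place of glucose. During fasting, falling insulin and rising glucagon release fatty acids from adipose tissue, and the nuclear receptor PPARα, paired with RXRα, raises transcription of genes for fatty acid oxidation and ketogenesis in hepatocytes. *Pdk4*, *Angptl4* and *Fgf21* are among its known targets, and each also responds to other signals.

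Libraries held between 20679642 and 25649767 counts, and levels are given as CPM, the counts of a gene scaled to a common library size after TMM normalization. *Themis* itself was at 8.07, 25.6 and 12.0 CPM in the WT livers and at 8.63, 7.74 and 9.97 in the *Themis*-KO livers, with a log2 difference of −0.79 ± 0.38 (SE) and an adjusted p of 0.199, so its count did not separate the labels and groups are named here as labelled. WT replicates 1 and 2 stood apart from the other 4 livers in a pair of sequence-related genes examined after the values were seen: of the counts on *mt-Nd3* and its nuclear copy *Gm28438*, the copy took 96.6% and 96.8% in those livers and between 2.20% and 3.26% in the rest. This split is called the mitochondrial type. Its first type holds WT livers only, so type and genotype are partly confounded, and a fit with the type as a covariate sets the *Themis*-KO livers against WT replicate 3 alone, on the assumption that this liver varies like the others. Values from that fit are given without a test, since an arm of 1 liver could hardly pass one. Of the marker lists of cell types that were summed, that of hepatocytes had the highest level in every library. Its sum was 74317 to 83991 CPM in WT and 62690 to 63582 CPM in *Themis*-KO livers. Marker sums of cholangiocytes, at 158 to 195 CPM in WT and 394 to 631 CPM in *Themis*-KO livers, and of hepatic stellate cells, at 417 to 479 and 632 to 664 CPM, did not overlap between the genotypes, and those of macrophages, at 501 to 852 and 845 to 1069 CPM, did. Of these markers 2 of 8, 5 of 9 and 2 of 12 were called higher, and their part in the results that follow was not tested. In bulk liver, fewer cells of a type and less RNA per cell cannot be told apart. Whole libraries were compared by chi-square per degree of freedom, which was 9.12 between KO replicates 1 and 2. KO replicate 3 was at 37.8 and 38.9 from these livers, and at 69.8, 38.2 and 33.1 from WT replicates 1, 2 and 3. Against each WT liver its value was the lowest of the *Themis*-KO livers. The p-values of the gene fits set the difference between genotypes against the spread among livers of the same genotype, for these 6 livers only.

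None of the 6 genes was called different between the genotypes by edgeR at an adjusted p of 0.05, where 9.11% of all tested genes were, 4.97% higher and 4.14% lower. *Pdk4*, *Slc16a1* and *Fgf21* had higher means in the *Themis*-KO livers, by 5.41-fold, 1.51-fold and 1.90-fold, and were the 3 of 6 with an unadjusted p under 0.05, a share to read against 30.7% of all tested genes in either direction and 16.8% in the higher direction. DESeq2 called the same 3 genes higher, against 8.78% of tested genes called higher and 16.3% in either direction. *Bdh1*, *Acat1* and *Angptl4* differed little between the group means. In none of the 6 did all livers of one group lie beyond all of the other, a separation that 34.6% of all tested genes had. Exact two-sided permutation tests on mean CPM gave p = 0.2 for each of *Pdk4*, *Slc16a1* and *Fgf21*, with 0.1 as the smallest value that 3 livers against 3 allow.

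**Figure D1:**
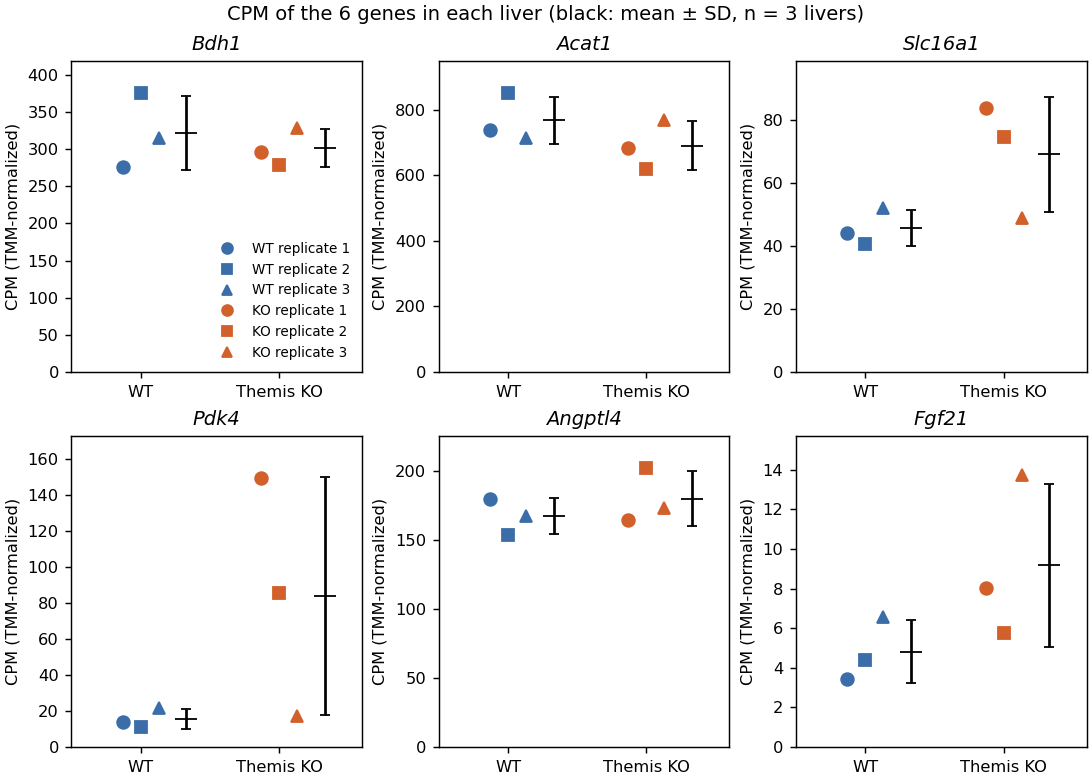
TMM-normalized CPM of the 6 genes in each liver (y axis, from 0), with WT livers in blue, *Themis*-KO livers in orange, the replicate number as the marker shape, and black bars for mean ± SD of 3 livers. *Pdk4* and *Slc16a1* were high in KO replicates 1 and 2 and near the WT livers in KO replicate 3, and *Fgf21* was highest in KO replicate 3.

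The stretches just before the transcription starts of the 3 genes with the larger mean differences, none of them called by edgeR, are shown. They are RefSeq promoter sequences in build GRCm38.p6, printed 5′ to 3′ along the strand of the gene. Those of *Slc16a1* and *Fgf21* end at the base before the RefSeq start, and that of *Pdk4* ends 31 bases earlier. *Slc16a1* lies at chr3:104638414-104638663 on the forward strand and *Fgf21* at chr7:45615491-45615740 on the reverse strand. *Pdk4* lies at chr6:5496310-5496528 on the reverse strand, where the 31 bases next to the start were left out from the first base marked as exon. Capitals mark matches to the motifs listed after the sequences.
Slc16a1: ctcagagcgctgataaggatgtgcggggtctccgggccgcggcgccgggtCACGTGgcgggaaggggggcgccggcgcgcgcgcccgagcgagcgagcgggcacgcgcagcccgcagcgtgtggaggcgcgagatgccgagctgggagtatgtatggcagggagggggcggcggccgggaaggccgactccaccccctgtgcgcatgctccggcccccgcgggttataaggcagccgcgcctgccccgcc
Pdk4: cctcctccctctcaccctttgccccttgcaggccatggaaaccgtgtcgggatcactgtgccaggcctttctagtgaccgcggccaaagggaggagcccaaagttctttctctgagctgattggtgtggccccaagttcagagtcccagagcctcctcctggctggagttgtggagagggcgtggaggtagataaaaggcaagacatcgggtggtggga
Fgf21: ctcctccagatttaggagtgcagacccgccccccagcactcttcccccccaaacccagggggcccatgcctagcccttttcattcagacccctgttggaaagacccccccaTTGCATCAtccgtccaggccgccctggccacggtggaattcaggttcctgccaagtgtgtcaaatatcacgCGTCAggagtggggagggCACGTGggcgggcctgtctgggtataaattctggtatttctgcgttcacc
Both strands were searched for the PPAR-RXR half-site AGGTCA and its direct repeat AGGTCANAGGTCA, which contains the half-site, the FOXO motif GTAAACA, the E-box CACGTG, the cAMP response half-site TGACG and the C/EBP-ATF element TGATGNAA. The E-box was found in *Slc16a1*, 200 to 195 bases before the start, and in *Fgf21*, 50 to 45 bases before it, and 6.02% of 32851 promoter windows of 250 bases hold it. *Fgf21* also held TGACG on the opposite strand, read as CGTCA, 68 to 64 bases before the start, as 17.8% of windows do. The C/EBP-ATF element, bound by ATF4 paired with a C/EBP factor, matched *Fgf21* on the opposite strand as TTGCATCA, 139 to 132 bases before the start, and occurs in 3.45% of windows. The *Pdk4* stretch of 219 bases and a *Bdh1* stretch of 233 bases, both shorter than the windows of 250 bases, held none of the 6 motifs. AGGTCA is present in 14.0%, its direct repeat in 0.0335% and GTAAACA in 3.17% of windows. *Acat1* and *Angptl4* were not among the promoter entries.

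*Bdh1* (ENSMUSG00000046598, chromosome 16, 31422280 to 31458901, forward strand) encodes the mitochondrial β-hydroxybutyrate dehydrogenase, which interconverts acetoacetate and β-hydroxybutyrate. Its level was 276, 375.5 and 314 CPM in the WT livers and 296, 279 and 329 CPM in the *Themis*-KO livers. The highest and the lowest liver were both WT, and the *Themis*-KO livers lay between them. The means were 322 ± 50.1 and 301 ± 25.3 CPM (SD, n = 3 each), with a log2 difference of −0.096 ± 0.13 (SE) and an adjusted p of 0.643. The 95% interval ran from −0.39 to 0.20. The sign turned to 0.026 without WT replicate 2, to 0.041 with scaling by total counts and to 0.20 with scaling to hepatocyte markers.

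*Acat1* (ENSMUSG00000032047, chromosome 9, 53580522 to 53610382, reverse strand) encodes the mitochondrial acetoacetyl-CoA thiolase, which joins acetyl-CoA units at the entrance of ketogenesis and splits acetoacetyl-CoA when ketones are used. Its level was 737, 850.4 and 715 CPM in the WT livers and 683, 619 and 769 CPM in the *Themis*-KO livers. WT replicate 2 was highest and KO replicate 2 lowest, and the groups overlapped through KO replicate 3. The log2 difference was −0.15 ± 0.12 (SE), with a 95% interval of −0.42 to 0.12 and an adjusted p of 0.400. Scaling to hepatocyte markers turned the sign, to 0.15.

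*Acat1* and *Bdh1* had the most alike patterns of the 15 pairs of these genes, with a root-mean-square difference of 0.088 in log2 CPM over the 6 livers after each gene was centered on its mean. Both were highest in WT replicate 2 and, among the *Themis*-KO livers, in KO replicate 3.

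Of the 9 further ketone body genes on a list of synthesis and use, 8 were tested and 0 were called by edgeR. At an unadjusted p under 0.05, 3 were lower in *Themis*-KO livers, where 13.9% of all tested genes were, and 7 of the 8 differences were below 0. The list's median log2 difference was −0.29, beside 0.0095 over all tested genes. The hepatocyte marker list had a median of −0.29 as well, with 10 of 11 tested markers below 0 and 1 called lower.

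**Figure D2:**
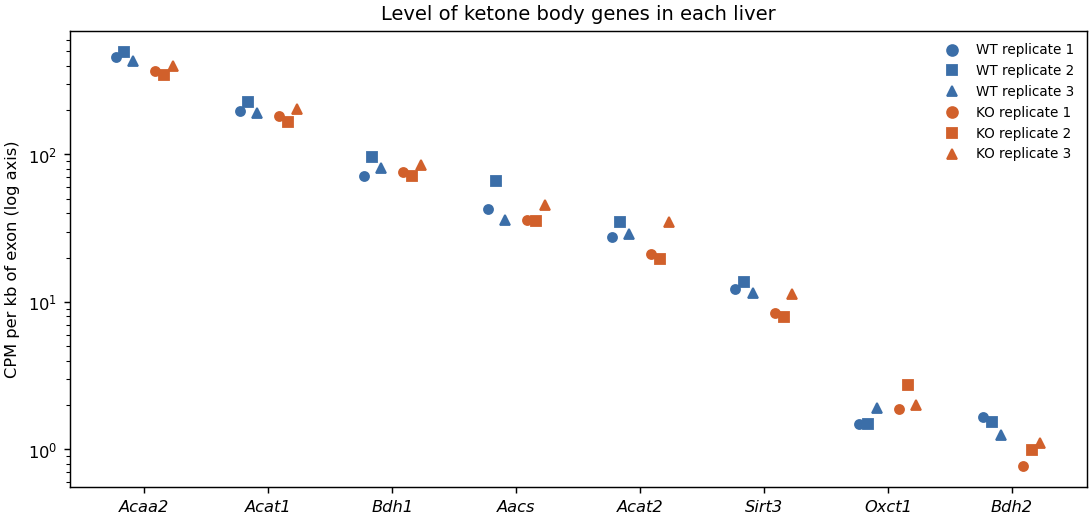
CPM per kilobase of exon (y axis, log scale) of *Acat1*, *Bdh1* and 6 further ketone body genes in each of the 6 livers, ordered by their WT mean, with WT livers in blue and *Themis*-KO livers in orange. *Oxct1*, for the use of ketones outside hepatocytes, and *Bdh2* had the lowest levels, and the genotypes overlapped for both *Acat1* and *Bdh1*.

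*Slc16a1* (ENSMUSG00000032902, chromosome 3, 104638668 to 104658462, forward strand) encodes MCT1, a transporter that carries ketone bodies, lactate and pyruvate across the plasma membrane. Its level was 44.3, 40.8 and 52.1 CPM in the WT livers and 84.1, 74.7 and 48.8 CPM in the *Themis*-KO livers. KO replicates 1 and 2 were above every WT liver, whereas KO replicate 3 lay below WT replicate 3. The log2 difference was 0.60 ± 0.20 (SE), with a 95% interval of 0.14 to 1.05, an unadjusted p of 0.0162 and an adjusted p of 0.0890. Without KO replicate 3 it was 0.78 and passed the threshold, in a fit that called 15.0% of tested genes higher. With the mitochondrial type as a covariate, thus against WT replicate 3 alone, it was 0.41.

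Among related transporters and their partners, 14 of 18 listed genes were tested, 1 was called higher and 1 lower (14.3%), and the median log2 difference was −0.037. *Emb*, an ancillary protein that brings monocarboxylate transporters to the membrane, rose from 1.28, 1.3 and 0.947 CPM to 4.29, 3.27 and 2.46 CPM, by 1.51 ± 0.27 (SE) on the log2 scale (adjusted p = 0.0255). Every *Themis*-KO liver was above every WT liver. *Slc16a10*, which carries aromatic amino acids, fell from 116, 83.0 and 99.0 CPM to 55.0, 71.3 and 63.8 CPM, a log2 difference of −0.65 ± 0.14 (SE) and an adjusted p of 0.0386.

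*Pdk4* (ENSMUSG00000019577, chromosome 6, 5483351 to 5496309, reverse strand) encodes a kinase that inactivates the pyruvate dehydrogenase complex and so spares pyruvate when fatty acids are burned. Its level was 13.7, 11.0 and 21.7 CPM in the WT livers and 149, 85.2 and 17.2 CPM in the *Themis*-KO livers. KO replicates 1 and 2 were far above every WT liver, and KO replicate 3 lay within the WT range. The *Themis*-KO livers differed among themselves by 8.65-fold and the WT livers by 1.98-fold, and the means were 83.9 ± 65.9 and 15.5 ± 5.58 CPM (SD, n = 3 each). In the spread among *Themis*-KO livers, measured as the range of log2 CPM, *Pdk4* ranked 31 of 14496 tested genes. The genotype difference was 2.44 ± 0.67 (SE) on the log2 scale, with a 95% interval of 0.89 to 3.98, an unadjusted p of 0.00682 and an adjusted p of 0.0596. Without KO replicate 3 it was 2.90 and passed the threshold, and without KO replicate 1 it was 1.72 with an adjusted p of 0.180. With the mitochondrial type as a covariate it was 1.95 against WT replicate 3 alone, and this liver, the WT liver of the type shared with the *Themis*-KO livers, had the highest WT level.

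The pyruvate dehydrogenase complex and its regulators, 11 genes without *Pdk4* and all tested, had 3 called lower and 0 called higher (27.3%), with a median log2 difference of −0.20. *Pdk2*, another kinase of the complex, was at 129, 123 and 117 CPM in WT and 79.0, 75.8 and 100.7 CPM in *Themis*-KO livers and fell by 0.53 on the log2 scale with an SE of 0.12 (adjusted p = 0.0396). *Pdp2*, a phosphatase that reverses these kinases, and *Pdpr*, the regulatory subunit of the phosphatase, fell by 0.58 and 0.73 on the log2 scale, with adjusted p of 0.0399 and 0.0426. The 3 genes called lower were thus a kinase and parts of the opposing phosphatase. KO replicate 3 had the *Themis*-KO level of *Pdk2* nearest to WT, as it had for *Pdk4*.

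*Angptl4* (ENSMUSG00000002289, chromosome 17, 33773750 to 33781830, reverse strand) encodes a secreted inhibitor of lipoprotein lipase that directs circulating triglycerides away from storage during fasting. Its level was 179.9, 153.8 and 167 CPM in the WT livers and 164, 202 and 173 CPM in the *Themis*-KO livers. Only KO replicate 2 lay outside the WT range. The means were 167 ± 13.0 and 179.8 ± 19.9 CPM (SD, n = 3 each), and the log2 difference was 0.11 ± 0.11 (SE), with a 95% interval of −0.14 to 0.36 and an adjusted p of 0.529. With scaling to hepatocyte markers, which moved the median of all genes to 0.32, it was 0.42 with an adjusted p of 0.0200, and 33.9% of tested genes were called higher under that scaling. *Angptl4* is also made in adipose tissue and *Pdk4* in muscle, and the summed level of the muscle markers in the table was at most 0.255 CPM in any liver. Of 3 adipocyte markers in the table *Adipoq* and *Plin1* were too low to be tested, at no more than 0.0789 and 0.0480 CPM. The third, *Cfd*, was called lower in *Themis*-KO livers, by 4.10 on the log2 scale, at 129, 72.1 and 34.4 CPM in WT and 4.97, 3.96 and 4.77 CPM in *Themis*-KO livers. These marker genes were chosen for naming after their values were seen, and the part of fat cells in the *Angptl4* and *Pdk4* levels was not tested.

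In the list of 13 genes that act on lipoprotein lipase or related lipases, all tested, 1 was called higher and 0 lower (7.69%), with a median log2 difference of −0.097. *Lpl*, lipoprotein lipase itself, rose from 57.6, 43.1 and 64.6 CPM in the WT livers to 96.1, 107 and 76.1 CPM in the *Themis*-KO livers, by 0.76 ± 0.17 (SE) on the log2 scale (adjusted p = 0.0412). The groups did not overlap, and KO replicate 3 was again the *Themis*-KO liver nearest to WT, as its whole library was.

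*Fgf21* (ENSMUSG00000030827, chromosome 7, 45613886 to 45615490, reverse strand) encodes a hormone that the liver secretes in fasting and in nutrient stress and that acts through FGF receptors with the co-receptor β-Klotho. Its level was 3.44, 4.41 and 6.55 CPM in the WT livers and 8.03, 5.76 and 13.7 CPM in the *Themis*-KO livers, from 75 to 291 counts a liver, the fewest of the 6 genes. KO replicates 1 and 3 were above every WT liver, and KO replicate 2 lay below WT replicate 3. The log2 difference was 0.92 ± 0.35 (SE), with a 95% interval of 0.11 to 1.74, an unadjusted p of 0.0309 and an adjusted p of 0.125. Its size moved with single livers, to 0.50 without KO replicate 3 and to 1.22 without WT replicate 3. With the mitochondrial type as a covariate it was 0.48 against WT replicate 3 alone.

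Of the 10 genes listed for receptors, co-receptors and processing of FGF21, 7 were tested, with 1 called higher and 1 lower (28.6%) and a median log2 difference of −0.11. *Klb*, which encodes β-Klotho, fell from 14.0, 14.7 and 15.4 CPM to 10.7, 9.16 and 11.7 CPM, a log2 difference of −0.49 ± 0.12 (SE) and an adjusted p of 0.0487. *Fgfr2*, an FGF receptor, rose by 0.34 ± 0.082 (SE) on the log2 scale (adjusted p = 0.0454).

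**Figure D3:**
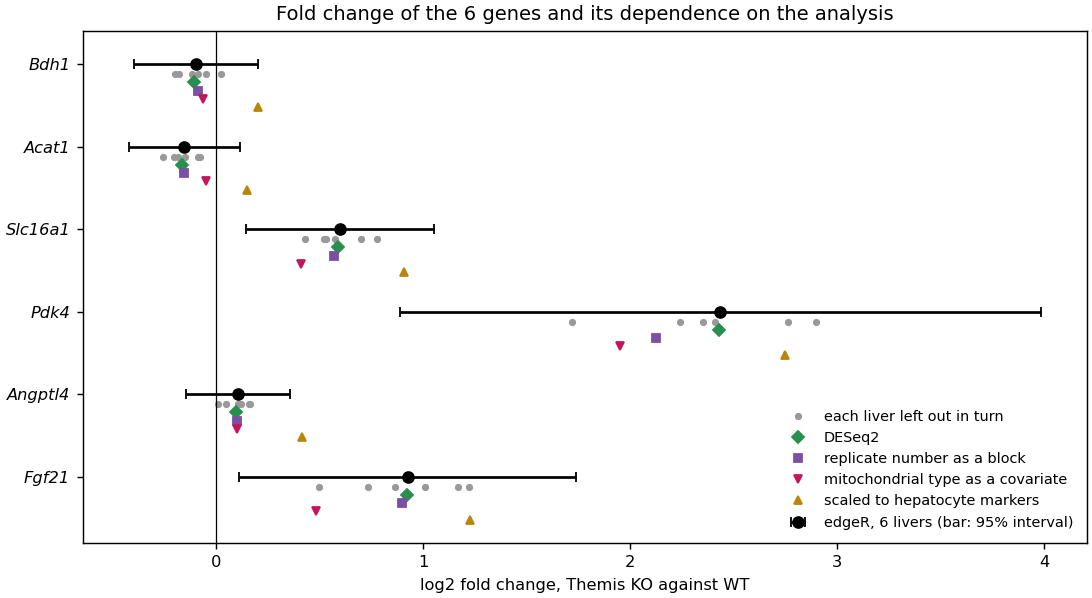
Log2 fold change of *Themis*-KO against WT (x axis) for the 6 genes, with the edgeR estimate and its 95% interval in black and smaller markers for each liver left out in turn, DESeq2, the replicate number as a block, the mitochondrial type as a covariate and scaling to hepatocyte markers. The estimate for *Pdk4* ranged from 1.72 to 2.90 when a liver was left out, and those of *Bdh1* and *Acat1* lay close to 0.

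To compare levels between the genes, CPM were divided by the length of the merged exons in kilobases. In the WT livers *Acat1* had the highest mean level per kilobase, 204 ± 19.4 (SD, n = 3), followed by *Bdh1* at 82.8 ± 12.9, *Angptl4* at 47.2 ± 3.68, *Slc16a1* at 10.3 ± 1.31, *Fgf21* at 5.05 ± 1.67 and *Pdk4* at 4.40 ± 1.59. The last 2 overlapped, and no other neighbors in this order did. In the *Themis*-KO livers the order began alike, with *Acat1* at 184 ± 20.1, *Bdh1* at 77.5 ± 6.50 and *Angptl4* at 50.8 ± 5.61, and went on with *Pdk4* at 23.9 ± 18.8, *Slc16a1* at 15.6 ± 4.13 and *Fgf21* at 9.65 ± 4.32. *Pdk4* thus had the lowest mean of the 6 in WT and the fourth highest in *Themis*-KO livers, but its range in the *Themis*-KO livers overlapped those of *Slc16a1* and *Fgf21*.

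The genes whose pattern over the 6 livers was most like that of each gene, by the same root-mean-square measure among tested genes of at least 5 CPM, differed between *Pdk4*, *Slc16a1* and *Fgf21*. For *Pdk4* they were *Hspa1a* (0.25), *Thbs1* (0.27) and *Tnc* (0.30), a heat shock chaperone and a pair of extracellular matrix proteins. *Thbs1* was at 3.39, 3.22 and 5.56 CPM in WT and 26.9, 16.2 and 4.82 CPM in *Themis*-KO livers, high in KO replicates 1 and 2 alone, as *Pdk4* was. *Hspa1a* has a near-identical copy that shares reads with it, so its level is uncertain. For *Slc16a1* they were *Lrrfip1* (0.039), *Ago2* (0.041) and *Pgs1* (0.047). *Ago2*, the slicing Argonaute of the microRNA pathway, was at 30.1, 28.2 and 34.6 CPM in WT and 57.1, 54.3 and 34.2 CPM in *Themis*-KO livers.

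For *Fgf21* the nearest genes were *Sqle* (0.18), *Mcm6* (0.23) and *Sgk1* (0.24). *Sqle*, squalene epoxidase of cholesterol synthesis, was at 6.10, 6.81 and 9.51 CPM in WT and 12.2, 8.13 and 15.9 CPM in *Themis*-KO livers, highest in KO replicate 3 as *Fgf21* was. For the 3 genes near the WT level the distances were small, since their own spread was: *Prpsap1* (0.040), *Limd2* (0.041) and *Rilp* (0.041) for *Bdh1*, *Dmap1* (0.017), *Prkacb* (0.024) and *Pex5* (0.025) for *Acat1*, and *Sf3a1* (0.027), *Mgme1* (0.036) and *Ccdc97* (0.038) for *Angptl4*. *Pdk4* and *Slc16a1* were further from each other, at 1.02, than either was from its nearest genes, and *Pdk4* and *Fgf21* were at 1.38.

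**Figure D4:**
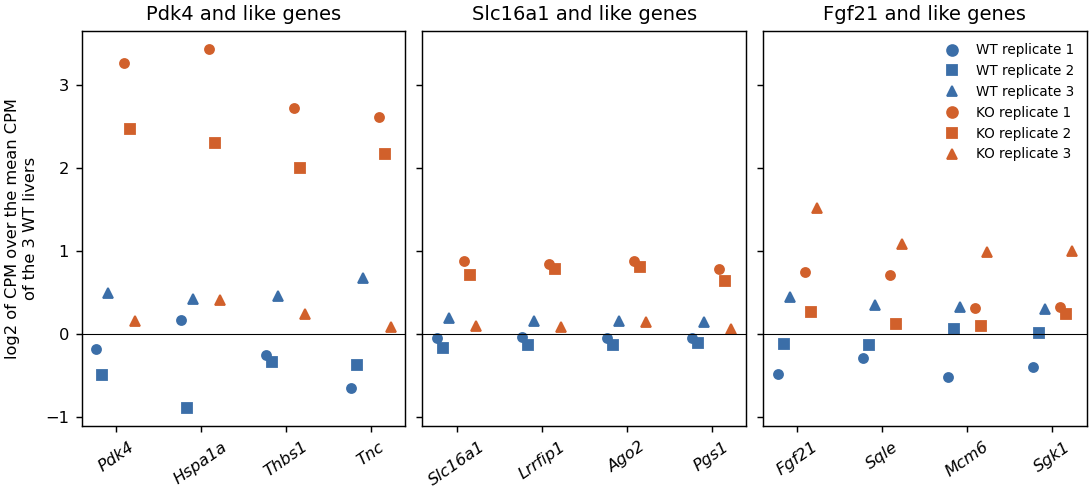
Log2 of CPM over the mean CPM of the 3 WT livers (y axis) for *Pdk4*, *Slc16a1* and *Fgf21*, each beside the 3 genes with the most similar pattern, in each of the 6 livers. In the *Pdk4* and *Slc16a1* panels KO replicates 1 and 2 lie above the WT livers and KO replicate 3 lies among them, and in the *Fgf21* panel KO replicate 3 is the highest liver.

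The regulators and target programs that the 6 genes are known to follow were read from 4 further lists. Of 20 fasting regulators, all tested, 0 were called higher and 2 lower (10.0%), with 16 differences below 0 and a median log2 difference of −0.27. *Ppara*, the receptor PPARα, fell from 129, 118 and 122 CPM to 80.1, 78.9 and 99.2 CPM, a log2 difference of −0.52 ± 0.11 (SE) and an adjusted p of 0.0345. *Rxra*, its partner, fell by 0.42 on the log2 scale with an adjusted p of 0.0351 and an SE of 0.088. The groups did not overlap for *Ppara*.

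PPARα targets other than the 6 genes, 20 in all and all tested, had 4 called lower and 0 called higher (20.0%), with 16 below 0 and a median log2 difference of −0.26. *Acsl1*, an acyl-CoA synthetase that activates fatty acids, had the smallest adjusted p of the 4, 0.0115, and fell by 0.85 on the log2 scale (SE 0.11). *Cyp4a10*, a fatty acid ω-hydroxylase, fell by 1.21 (adjusted p = 0.0266) and *Acot1*, an acyl-CoA thioesterase, by 0.59 (adjusted p = 0.0416), both on the log2 scale. *Cyp4a10* and *Acot1* belong to families with near-identical members, and their counts are uncertain for that reason. *Cpt1a*, which admits long-chain fatty acids to mitochondria, was at 795, 785 and 728 CPM in WT and 550.5, 554 and 665 CPM in *Themis*-KO livers, with a log2 difference of −0.38 ± 0.11 (SE) and an adjusted p of 0.0605. *Pdk4*, *Angptl4* and *Fgf21*, known PPARα targets as well, had log2 differences above 0, and none of them was called. Scaling to hepatocyte markers moved the median of all tested genes from 0.0095 to 0.32, so the side of 0 of a list median can depend on scaling. Why these genes and the list differed was not tested.

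Of 8 genes of fasting gluconeogenesis, all tested, 1 was called higher and 0 lower (12.5%), 7 differences were below 0 and the median was −0.27 on the log2 scale. The gene called higher was *Igfbp1*, a secreted IGF-binding protein repressed by insulin, which makes no glucose itself. It was at 37.8, 26.4 and 63.8 CPM in the WT livers and 195, 188 and 66.2 CPM in the *Themis*-KO livers, a log2 difference of 1.81 ± 0.45 (SE) and an adjusted p of 0.0471. Like *Pdk4*, it was high in KO replicates 1 and 2, and KO replicate 3 was barely above the highest WT liver.

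ATF4, a transcription factor of the integrated stress response, is a known regulator of *Fgf21*, and of 11 genes listed as ATF4 or its targets 10 were tested, 3 called higher and 1 lower (40.0%), with 9 differences above 0 and a median of 0.51 on the log2 scale. *Atf3*, a stress-induced transcription factor, rose from 2.29, 2.93 and 4.38 CPM to 19.1, 14.3 and 7.79 CPM, by 2.09 ± 0.36 (SE) on the log2 scale (adjusted p = 0.0241). *Atf4* itself and *Ddit3*, which encodes CHOP, rose by 0.52 and 0.57 on the log2 scale (adjusted p = 0.0482 and 0.0388). *Cth*, cystathionine γ-lyase of cysteine synthesis, fell by 0.86 on the log2 scale (adjusted p = 0.0112). Among the *Themis*-KO livers *Atf3* was lowest in KO replicate 3, the liver in which *Fgf21* was highest. The part of ATF4 in the *Fgf21* level was not tested.

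**Figure D5:**
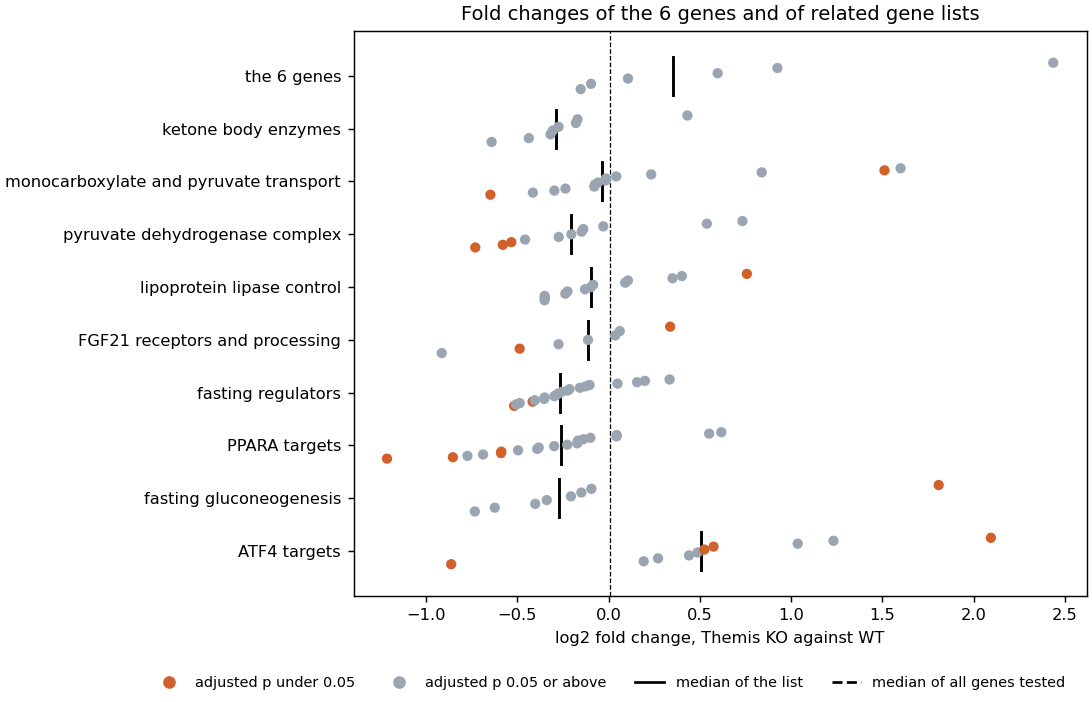
Log2 fold change of *Themis*-KO against WT (x axis) of each tested gene in the 6 genes and in 9 lists of related genes, with genes of adjusted p under 0.05 in orange, the list median as a solid line and the median of all tested genes as a dashed line. The 6 genes spread from −0.15 for *Acat1* to 2.44 for *Pdk4* with none called, and the medians of 8 lists lie below 0, the ATF4 list being the exception.

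Across the 9 lists, 111 of 120 genes were tested, 7 were called higher and 12 lower, which is 17.1% beside 9.11% of all tested genes. The lists were chosen with earlier results of these data known, so the larger share is no independent evidence of a change in them. The calls depended on which livers were used. The lists had 0 called higher and 0 lower without WT replicate 1, without KO replicate 1 or without KO replicate 2. They had 0 higher and 2 lower without WT replicate 2 and 5 higher and 7 lower without WT replicate 3. Without KO replicate 3 they had 14 higher and 37 lower. Calls over all tested genes moved as well, from 721 higher and 600 lower. They were 12 and 32, 8 and 12, and 27 and 41 without WT replicate 1, KO replicate 1 and KO replicate 2. Without WT replicate 2, WT replicate 3 and KO replicate 3 they were 19 and 57, 481 and 369, and 2228 and 2039. A fit with the mitochondrial type as a covariate has WT replicate 3 as the only WT liver of the shared type. In it the log2 differences of the called genes named here kept their sign. The same livers gave the calls, so the kept signs are no independent check of them. *Ppara* was then at −0.51, *Klb* at −0.56 and *Emb* at 1.81, and *Cyp4a10* was smaller, at −0.61. Scaling to hepatocyte markers turned the split to 24 higher and 3 lower and scaling by total counts to 13 higher and 5 lower. For all tested genes it became 4918 higher and 261 lower, and 1449 higher and 387 lower. None of the called genes named here changed sign under these scalings, but *Ppara*, *Rxra*, *Acot1*, *Klb*, *Slc16a10*, *Pdk2*, *Pdp2* and *Pdpr* were among those that lost their calls when scaled to hepatocyte markers. Most list medians lay below 0, and the summed level of hepatocyte markers was lower in *Themis*-KO livers. The part of the markers in these medians was not tested.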

How the data were processed

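The authors prepared poly(A) libraries from frozen liver, sequenced them as paired-end reads of 151 bases, mapped them to GRCm38 with STAR 2.7.8a and estimated gene counts with RSEM 1.3.3. The submitters' processing notes also name cutadapt 2.3. The deposited estimated counts are whole numbers and are not normalized. RSEM divides reads that fit several genes, so near-identical genes are uncertain.

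The filterByExpr function removed 10907 of 25403 genes for low counts and left 14496. WT and *Themis*-KO livers, 3 each, were compared in R 4.3.3 with edgeR 4.0.16 (TMM, glmQLFit, glmQLFTest) without covariates, with Benjamini-Hochberg adjustment over all genes tested and a threshold of 0.05. DESeq2, the tool of the authors' own comparison, was run in version 1.42.0 as an alternative. CPM carry no prior count, and patterns were compared on log2 CPM with a prior count of 2. Exon lengths and positions are from GENCODE vM21 (GRCm38). The biological coefficient of variation was 0.157, and counting error adds to it most for genes of few counts such as *Emb* and *Fgf21*. The fits were tested on simulated counts.

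Named are the 6 genes, *Themis*, *Ppara*, *Cpt1a*, *Klb*, list genes with an adjusted p under 0.05 and, for each of the 6, the 3 tested genes of at least 5 CPM with the nearest pattern. Some genes that this rule covers are counted in the lists but not reported here by name. The genes, lists and tests were chosen with earlier results of these data known. Marker lists of 10 cell types were summed, and those not given in the report were as follows: endothelial cells 284 to 321 CPM in WT against 329 to 366 in *Themis*-KO livers, T cells 4.41 to 5.84 against 3.40 to 7.73, B cells 2.34 to 5.57 against 1.59 to 4.91, neutrophils 1.63 to 3.47 against 2.36 to 8.41 and adipocyte genes 34.5 to 129 against 4.00 to 4.97, nearly all of it *Cfd*.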

Additional observations from a re-analysis of the deposited data

How the results depend on the processing

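Of the 6 genes, edgeR called 0 higher and 0 lower with all livers. The count called higher was 1 with total counts, 4 with hepatocyte marker scaling, 2 without a filter on low counts, 3 with DESeq2 and 2 at an adjusted p under 0.1, and from 0 to 2 when a liver was left out. Apart from the fit with the mitochondrial type, which is given without a test, it was 0 with the other settings. None was called lower in these fits. *Pdk4* was called with total counts (2.57 on the log2 scale), hepatocyte marker scaling (2.75), no filter (2.42) and DESeq2 (2.43, adjusted p = 0.0269), *Slc16a1* with hepatocyte marker scaling (0.91), no filter (0.58) and DESeq2 (0.59, adjusted p = 0.0317), *Fgf21* with hepatocyte marker scaling (1.22) and DESeq2 (0.92, adjusted p = 0.0472), and *Angptl4* with hepatocyte marker scaling (0.42). Leaving out a liver moved them between 1.72 and 2.90, 0.43 and 0.78, 0.50 and 1.22, and 0.0072 and 0.16, *Bdh1* between −0.20 and 0.026 and *Acat1* between −0.25 and −0.075. *Bdh1* turned to 0.041 with total counts and 0.20 with hepatocyte marker scaling, and *Acat1* to 0.15 with the latter. Hepatocyte marker scaling moved the median of all genes from 0.0095 to 0.32 and total counts moved it to 0.15, which accounts for shifts of that size. With hepatocyte marker scaling *Prpsap1* turned to 0.24, *Limd2* to 0.21, *Rilp* to 0.16, *Dmap1*, *Prkacb* and *Pex5* to 0.13 each. *Prpsap1* and *Limd2* turned to 0.073 and 0.048 with total counts and, over the fits without a liver, ran from −0.14 to 0.022 and from −0.21 to 0.026, above 0 without WT replicate 2. *Sf3a1* and *Mgme1* ran from −0.011 to 0.15 and from −0.0058 to 0.18, below 0 without KO replicate 2.

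For the 9 lists, 7 called higher and 12 lower became 13 and 5 with total counts and 24 and 3 with hepatocyte marker scaling. They were 11 and 19 without a filter, 13 and 23 with DESeq2 and 13 and 23 at an adjusted p under 0.1. Without a liver they ran from 0 to 14 and from 0 to 37. For all tested genes, 721 higher and 600 lower became 1449 and 387, 4918 and 261, and 1212 and 967 in the same order. With DESeq2 and at an adjusted p under 0.1 they were 1273 and 1084, and 1664 and 1316. Without a liver they ran from 8 to 2228 and from 12 to 2039. The paper speaks of its sequenced livers as 3 pairs, without saying what makes a pair. Same-numbered livers had a mean correlation of −0.13 in their deviations from the group means and others 0.066. With 3 livers a group, these values cannot decide whether the replicate numbers pair the livers. With the replicate block the 6 genes stayed uncalled, *Pdk4* at 2.13 (adjusted p = 0.16), *Slc16a1* at 0.57 (adjusted p = 0.177) and *Fgf21* at 0.90 (adjusted p = 0.10). The unadjusted edgeR p of *Fgf21* went from 0.0309 to 0.00519 with the block. Those of *Pdk4* and *Slc16a1* went up, from 0.00682 to 0.0264 and from 0.0162 to 0.0333. The lists had 0 called in either direction with the block, and all genes 17 higher and 45 lower. Of 6 fits without a liver, each called list gene named here lost its call in 3 to 5. Beyond the shift of all genes that a change of scaling brings, why values and calls moved between settings was not tested.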
